A study of Ctenopharyngodon idella with 6 samples.

Results

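Plasma exosomes of grass carp (Ctenopharyngodon idella) carried miR-451 and miR-144, a pair of miRNAs known from red blood cells, while the entries of miR-486, also known from red cells of mammals, were close to 0. The members were every known miRNA entry whose family is exactly miR-144, miR-451 or miR-486, whatever the species prefix and arm of its name. They made up 43 of the 2925 entries, of which 16 were miR-451, 22 were miR-144 and 5 were miR-486. The fish were of 1 age, 10 months, and had been reared in the same high-density pond for 9 months. The comparison asks which exosomal miRNAs differ between fish that had grown large and fish that had stayed small. Large fish libraries L1, L2 and L3 each held plasma of 2 pooled fish, 6 fish in all, and small fish libraries S1, S2 and S3 each held plasma of 5 pooled fish, 15 in all. Pool size and fish size cannot be told apart in this design, and a pool hides the spread between its fish.

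Values are counts per 1000000 miRNA counts of a library (CPM), made from 3 ng of RNA with reads of the same molecular identifier counted as 1. The smallest library was L1 (5272418 counts) and the largest S2 (11524535 counts). The known entries summed to 997364 CPM in L1 and 997976 CPM in S2, although their names could share reads. These totals may therefore count 1 read under several names and need not be numbers of molecules. Where no read was counted, the level can still be as high as 0.569 CPM for L1 and 0.260 CPM for S2, taking 3 counts as the limit. Such limits and the counting intervals given here cover counting error only. Whole small RNA of exosomes was sequenced with no cell sorting, so fewer vesicles from a cell type and less miRNA per vesicle cannot be told apart. Entries came from many species and could share reads, so that the 43 members held 26 distinct sets of values under 28 species prefixes.

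In vertebrates, miR-144 and miR-451 lie next to each other at a single locus and are transcribed together in red cell precursors, in mouse and zebrafish under the control of GATA1. The miR-451 hairpin is too short for Dicer and is cut by Ago2 itself, as shown in zebrafish and mouse, and the 5p strand is the one retained in Ago2. In zebrafish miR-451 represses gata2 and supports red cell maturation, in mouse it represses Ywhaz, and miR-144 in zebrafish represses the globin regulator klfd. In mammals miR-486 lies in an intron of ANK1 and is abundant in red cells and muscle. Red cells of fish keep their nucleus in the circulation.

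The sequences below are entries of miR-451, with the seed, bases 2 to 8, in capitals. They are shown because the abundant 5p entries share 1 seed while the 3p entries differ in their seeds, and oni-miR-451b is added for its match to a 3p entry.
gga-miR-451 (chicken): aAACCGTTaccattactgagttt
hsa-miR-451a (human): aAACCGTTaccattactgagtt
chi-miR-451-5p (goat): aAACCGTTaccattactga
pma-miR-451 (sea lamprey): aAACCGTTaccattattgtaacca
aca-miR-451-3p (green anole): tAGTAATGgtaagggttct
chi-miR-451-3p (goat): tTTAGTAAtggtaacggttct
gmo-miR-451-3p (Atlantic cod): tAGCAATGgtaagggttcc
oni-miR-451b (Nile tilapia): cCGTAGAAcccttaccattact

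The seed AACCGTT was shared by 9 of the 11 entries of miR-451-5p, and no entry outside the family carried it. The other two entries, hsa-miR-451b and oni-miR-451b, were placed with the 5p arm only by shared words of 8 bases and have other seeds. Counting positions from 1 at the 5′ end of gga-miR-451, the lamprey entry differs from it at C16T, A19T, G20A, T21A, T22C and T23C. All 5 entries of miR-451-3p have different seeds. From the 5′ end of aca-miR-451-3p, the goat entry starts 2 bases earlier and differs at G13C, and the cod entry differs at T4C and T19C. Bases 2 to 17 of gga-miR-451, a run of 16, are complementary to chi-miR-451-3p, and the longest such run with aca-miR-451-3p is 11 bases. The tilapia entry oni-miR-451b is complementary to aca-miR-451-3p over 18 bases, yet it was counted only once in all libraries, in L2.

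For miR-144 the sequences show how entries of 1 arm differ at inner bases or at their ends, where a shifted 5′ end moves the seed.
dre-miR-144-5p (zebrafish): gGATATCAtcgtatactgtaagt
hsa-miR-144-5p (human): gGATATCAtcatatactgtaag
ola-miR-144 (medaka): aGGATATCatcttatactgtaa
ccr-miR-144 (common carp): cTACAGTAtagatgatgtact
ssa-miR-144-3p (Atlantic salmon): cTACAGTAtagatgatgtac
mmu-miR-144-3p (mouse): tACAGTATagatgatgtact
pma-miR-144-3p (sea lamprey): tACAGTATatatgatgtgctgc

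From the 5′ end of dre-miR-144-5p, the human entry differs at G11A and the medaka entry at G11T, and the medaka entry starts 1 base earlier. Of the 11 entries of miR-144-5p, 7 carry the seed GATATCA. The 3p arm has the seed ACAGTAT in 7 entries and TACAGTA, 1 base further 5′, in 3 entries. The second of these seeds is also that of 7 entries of miR-101. The carp, chicken, mouse, flounder, chimpanzee and pig entries of miR-144-3p had the same value in every library although their 5′ ends differ, so the deposited values do not tell these 5′ ends apart. Compared with ccr-miR-144, the lamprey entry differs at G11T and A19G and was under 1 CPM in every library.

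In each library the order of levels was miR-451-5p, miR-451-3p, miR-144-5p and miR-144-3p, taking the entry with the highest mean for each arm. This order held in 6 of 6 libraries. It depends on the choice of entry, since by the mean of the distinct sets of values of each arm miR-144-5p lay above miR-451-3p in 4 of 6 libraries, all but L2 and L3. Levels of different miRNAs also depend on how well each sequence is ligated and on how many names share its reads.

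The 5p arm of miR-451, the strand retained in Ago2, is represented by gga-miR-451. Its level was 2519.7 CPM in L1, 2745 in L2 and 2806 in L3. In small fish it was 2314 CPM in S1, 2709.96 in S2 and 1143 in S3. The 3 large fish libraries lay close together, S2 lay among them, and S3 was the lowest of the 6. Means were 2690.2 ± 151 CPM in large fish and 2056 ± 815 CPM in small fish (SD, n = 3 pools). These values rest on 8508 to 31231 counts, and 11 to 21 miRNA families were more abundant in the same library. Of the 11 entries of this arm, 8, gga-miR-451 among them, lay within 10% of its mean. In each library the others of these 8 were at most 1.99% below it, so they add no independent measurement.

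The 3p arm of miR-451, on the other side of the hairpin, is represented by aca-miR-451-3p. Its level was 795, 2452 and 1666 CPM in large fish and 868, 912 and 276 CPM in small fish, in the order of library numbers. L2 and L3 lay above all small fish libraries, whereas L1 lay below S1 and S2, so the groups overlapped. Means were 1637 ± 829 CPM in large fish and 685 ± 356 CPM in small fish. This entry made up 24.0, 47.2 and 37.2% of its sum with gga-miR-451 in large fish, against 27.3, 25.2 and 19.4% in small fish. In L2 it was thus almost as abundant as gga-miR-451. The goat entry chi-miR-451-3p, complementary to gga-miR-451 over 16 bases against 11 for the anole entry, stood at 406 CPM in L2. Which 3p sequence lies opposite gga-miR-451 in the carp hairpin was not tested.

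The 5p arm of miR-144, represented by the zebrafish entry dre-miR-144-5p, stood at 646, 373 and 469 CPM in large fish and at 581, 634 and 268 CPM in small fish. L1 was the highest and S3 the lowest, and the group means were nearly equal, 496 ± 139 CPM in large fish and 494 ± 198 CPM in small fish. It was the neighbor below miR-451-3p in the order of levels. The ratio of miR-451-3p to it was 6.57 in L2 and 3.55 in L3, but only 1.23 in L1, 1.49 in S1, 1.44 in S2 and 1.03 in S3. In S3 the 95% counting intervals of both arms overlapped, so their order there was within counting error.

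The 3p arm of miR-144, the strand usually studied as miR-144, is represented by the common carp entry ccr-miR-144 and was the least abundant. Its level was 86.1, 82.0 and 127 CPM in large fish and 138, 92.5 and 37.0 CPM in small fish. S1 was the highest, S3 the lowest, and all other libraries lay between them, with means of 98.4 ± 24.9 CPM in large fish and 89.2 ± 50.7 CPM in small fish. This arm made up 11.8 to 21.3% of the 2 arms of miR-144 in the 6 libraries. By the most abundant entry of each arm, the balance of these families therefore leaned to 5p in every library, for miR-144 more than for miR-451.

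**Figure D1:**
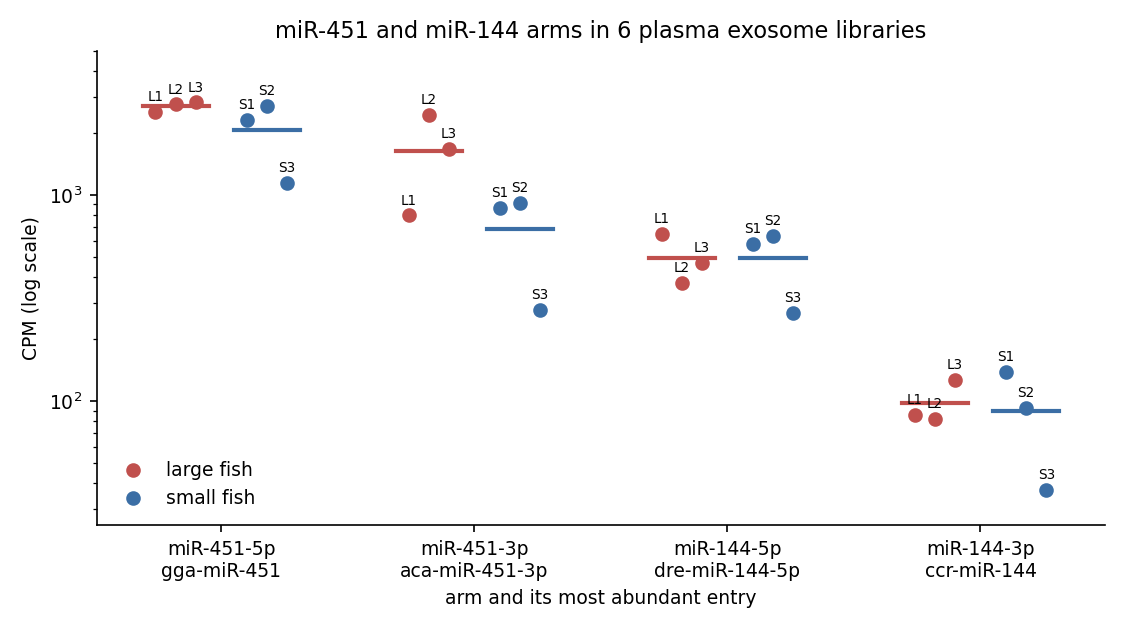
Level in CPM (log axis) of the most abundant entry of each arm of miR-451 and miR-144, with 1 point for each library and a line at the mean of each group (n = 3 pools). S3 is the lowest point in all 4 arms, and large and small fish libraries overlap in each arm. All libraries together run from 1143 to 2806 CPM for miR-451-5p and from 37.0 to 138 CPM for miR-144-3p.

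The miR-486 entries (dog, bat, human, rabbit and bonobo) shared 1 set of values. They had 1 count in L3, which is 0.153 CPM, and none in the 5 other libraries. The level of miR-451-5p was at least 4428-fold higher than miR-486 in L1, 7009.7-fold in L2, 5156-fold in S1, 10410.3-fold in S2 and 2836-fold in S3, with 3 counts as the floor of each library. In L3 the ratio was 18286, with a 95% counting interval of 3282 to 722258. All 5 of these entries are mammalian, and a carp miR-486 of another sequence might not be counted under them. The entries of miR-486 thus do not show it as an abundant miRNA of these libraries, and its level in carp cannot be read from them.

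Some entries of the same arm were counted at very different levels. In each library aca-miR-451-3p was 4.59 to 6.04 times as abundant as chi-miR-451-3p, which has another base at position 13 of the anole entry and starts earlier, and 70.9 to 128 times as abundant as the cod entry. The zebrafish entry dre-miR-144-5p exceeded the human entry by 18.8 to 49.3 CPM, which is 6.97 to 10.6% of its value. Levels of both entries thus lay close together although they differ at base 11. How many mismatches the counting allowed is not given in the sources used here. The carp entry ccr-miR-144 was 6.68 to 9.66 times as abundant as ssa-miR-144-3p, which has the same sequence without the last base. The pig entry ssc-miR-144 starts at base 2 of the carp entry and also lacks its last base. Yet the pig entry had the same values as ccr-miR-144. What sets the level of ssa-miR-144-3p apart was not tested.

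None of the members passed the limma test between large and small fish. The test was run on log2(CPM + 1) for the 1807 entries that reached 1 CPM in 3 or more libraries. Passing required an adjusted p no higher than 0.05 and a fold of 1.5 or more. Of the 43 members, 34 were tested and 9 were too low, namely all 5 of miR-486, hsa-miR-451b, oni-miR-451b, rno-miR-451-3p and pma-miR-144-3p. The count was 0 of 34 members, while 17.0% of all tested entries passed, 2.82% higher and 14.2% lower in large fish. These 34 members held 22 distinct sets of values and share reads, so 0 of 34 cannot be read as fewer than that share. At an unadjusted p under 0.05 there was 1 member, pma-miR-451, beside 32.5% of all entries. The edgeR quasi-likelihood test on recovered counts also passed 0 members, beside 2.55% of all entries in its older form and 13.4% in its bias-corrected form. In contrast, the edgeR exact test and DESeq2 each passed 2, aca-miR-451-3p and pma-miR-451, beside 8.02% and 9.68% of all entries that passed as higher.

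All 34 members had a positive log2 fold change, where the median of all tested entries was -0.26 and 578 of 1807 were positive. Because the members share reads and libraries, these are not 34 separate measurements. The members' log2 fold changes ran from 0.03 for pny-miR-144 to 1.30 for aca-miR-451-3p, with a median of 0.30. Medians by arm were 0.48 for miR-451-5p, 1.12 for miR-451-3p, 0.04 for miR-144-5p and 0.30 for miR-144-3p. Scaling the libraries by TMM moved the median of all entries up by 0.21, and quantile normalization moved it up by 0.35.

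For gga-miR-451 the log2 fold change of large over small fish was 0.48 (SE 0.33, 95% interval -0.30 to 1.26, limma adjusted p = 0.365). It stood 0.74 above the median of all entries. Without S3 it was 0.10.

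For aca-miR-451-3p it was 1.30 (SE 0.58, 95% interval -0.06 to 2.65, limma adjusted p = 0.170), or 1.56 above the median of all entries. This was the largest value among the 34 tested members. Without S3 it was 0.73, and without L2 it was 0.93. The edgeR exact test gave 1.52 with an adjusted p of 0.0478, and DESeq2 gave 1.55 with an adjusted p of 0.0315, so the call depends on the test. Over all alternatives tried, its adjusted p lay between 0.0315 and 0.404.

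For dre-miR-144-5p the log2 fold change was 0.07 (SE 0.38, 95% interval -0.83 to 0.96, limma adjusted p = 0.931), and for ccr-miR-144 it was 0.30 (SE 0.48, 95% interval -0.82 to 1.42, limma adjusted p = 0.694). Both turned negative without S3, to -0.33 and -0.23, and the first was also negative, -0.14, without L1. With all libraries they stood 0.33 and 0.56 above the median of all entries. They depended on scaling, at 0.32 and 0.55 after TMM scaling and 0.35 and 0.71 after quantile normalization. The intervals leave room for a change of more than 1.5-fold in either direction, so these libraries do not show that miR-144 was equal in both groups.

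The lamprey entry pma-miR-451 was the only member whose groups did not overlap, where 40.1% of all tested entries did not overlap. Its level was 56.9, 71.1 and 54.5 CPM in large fish and 42.3, 36.4 and 16.8 CPM in small fish. The lowest large fish library lay above the highest small fish library. Its log2 fold change was 1.00 (SE 0.36, 95% interval 0.15 to 1.86, limma adjusted p = 0.101). The entry was 38.6 to 74.5 times less abundant than gga-miR-451, whose log2 fold change was smaller, and its 3′ end differs as shown above. Without S3 its log2 fold change was 0.61, and with any 1 library left out it ran from 0.61 to 1.25. After quantile normalization it passed with an adjusted p of 0.0446, beside 7.64% of all entries that passed as higher.

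**Figure D2:**
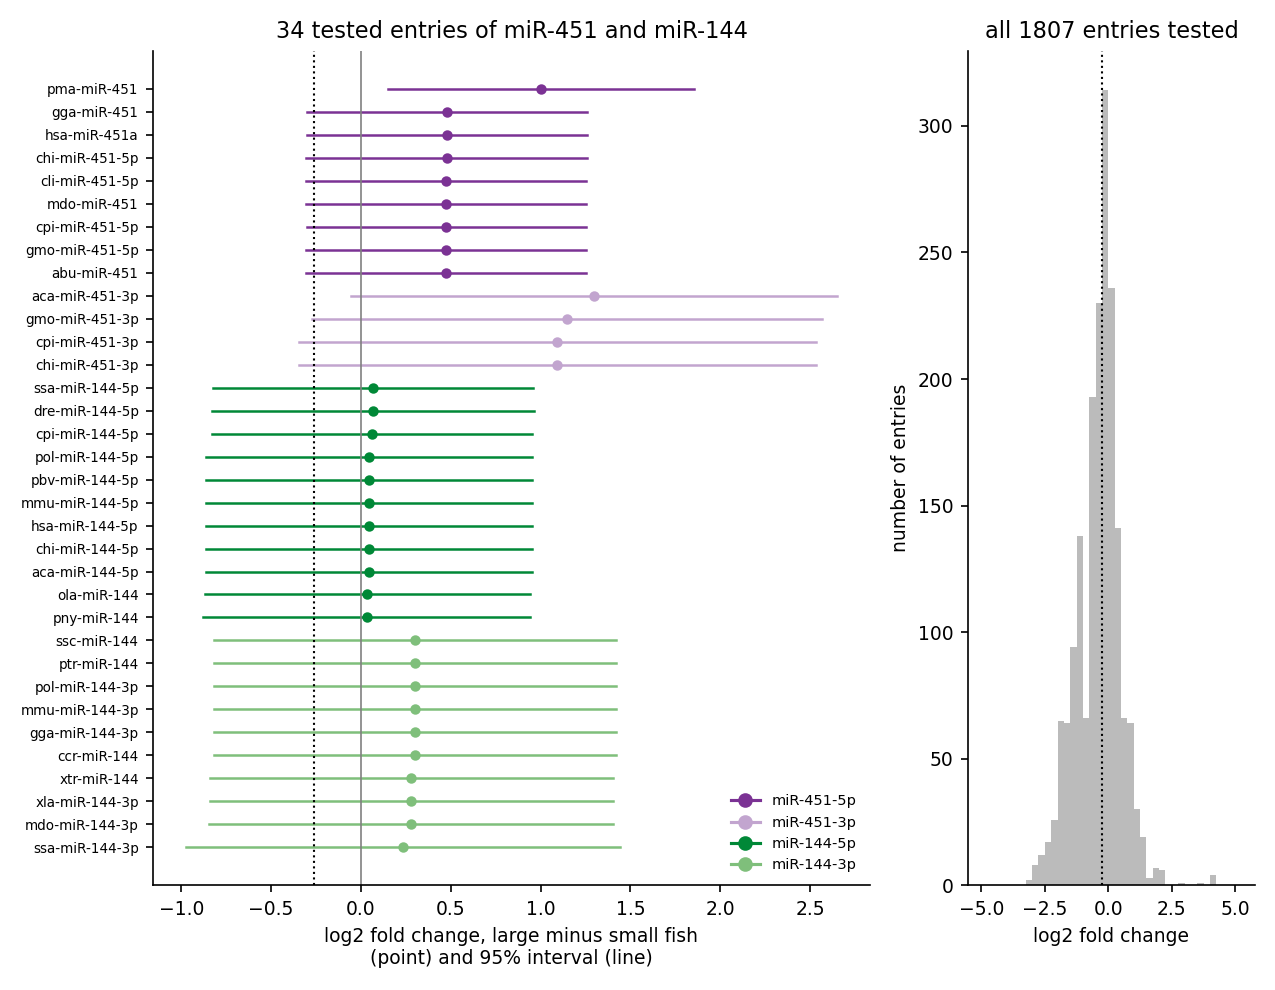
Left, log2 fold change of large minus small fish (point) with its 95% interval (line) for the 34 tested entries of miR-451 and miR-144, colored by arm; right, the number of entries at each log2 fold change among all 1807 tested. The dotted line is the median of all entries, -0.26, all 34 points lie above it, and only the interval of pma-miR-451 (0.15 to 1.86) leaves out 0.

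Library S3 set much of the spread in small fish. It was the lowest of the 6 libraries in all 4 arms, while it was the lowest in 9.13% of all tested entries. Compared with the mean of S1 and S2, its level was 0.455 times for miR-451-5p, 0.310 times for miR-451-3p, 0.440 times for miR-144-5p and 0.320 times for miR-144-3p. Over 1805 tested entries the median of this ratio was 1.04, and 4.82% of entries lay below 0.455. Thus both arms of both families were low together in this pool of 5 fish, with a library total of 7440944 counts that was not the lowest. What made this pool low was not tested.

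Ratios within a library do not depend on how the library was scaled, and none of the 5 ratios compared passed the 2-sided exact permutation test, whose smallest p with 3 against 3 libraries is 0.1. The ratio of miR-451-5p to miR-451-3p was 3.17, 1.12 and 1.68 in large fish, against 2.67, 2.97 and 4.15 in small fish. L2 and L3 were below all small fish libraries and L1 was above S1 and S2 (log2 difference -0.82, exact permutation p = 0.3, adjusted over 5 ratios 0.667). The ratio of miR-144-5p to miR-144-3p ran from 3.69 in L3 to 7.51 in L1, with overlapping groups (log2 difference -0.24, exact permutation p = 0.7, adjusted 0.7).

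Between the families, the ratio of miR-451-5p to miR-144-5p was 3.98, 4.27 and 4.27 in small fish, although both levels were lowest in S3. In large fish it was 3.90, 7.35 and 5.99. The SD of the log2 ratio was 0.06 in small fish and 0.47 in large fish, and the means differed by 0.41 on the log2 scale (exact permutation p = 0.4, adjusted 0.667). The spread itself was not tested. The ratio of the 3p arms, miR-451-3p to miR-144-3p, was highest in L2 at 29.9 and ran from 6.28 to 13.1 in the other libraries (log2 difference 0.99, exact permutation p = 0.2, adjusted 0.667).

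In human plasma, the ratio of miR-451 to miR-23a is used as a sign of red cell lysis. Here miR-23-3p, represented by dre-miR-23a-3p, stood at 261, 149 and 195 CPM in large fish and 185, 155 and 194 CPM in small fish. The ratio of miR-451-5p to it was 9.64, 18.4 and 14.4 in large fish, against 12.5, 17.4 and 5.90 in small fish. L1 and S3 were the lowest and L2 and S2 the highest, so that the groups overlapped (log2 difference 0.33, exact permutation p = 0.6, adjusted 0.7). Without S3 the difference was -0.11. Whether lysis contributed to the level of miR-451 in any library was not tested.

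**Figure D3:**
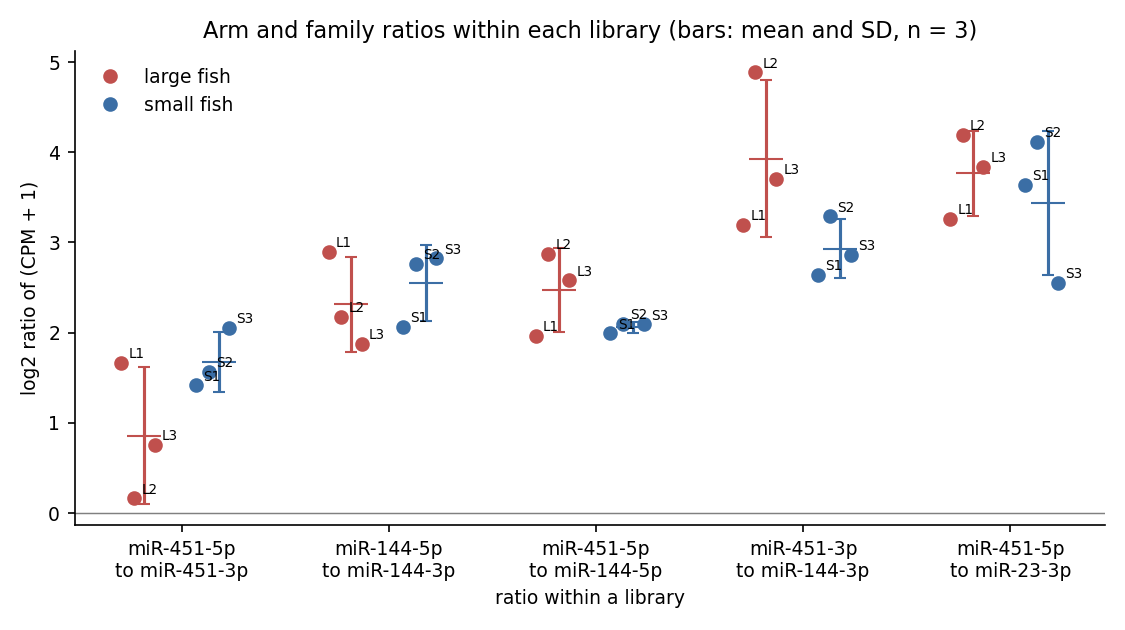
Log2 ratio of (CPM + 1) between arms and families within each library, with 1 point for each library and bars for the mean and SD of each group (n = 3 pools). For miR-451-5p to miR-144-5p the small fish libraries lie within 3.98 to 4.27 as linear ratios while large fish run from 3.90 to 7.35, and the groups overlap in all 5 ratios.

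Other families with a similar pattern were looked up by Pearson's r of log2(CPM + 1) over the 6 libraries among 150 families, as a description only, since with 6 libraries S3 weighs heavily. The family closest to miR-451-5p was miR-497 (r = 0.90), followed by miR-2188 (0.82), miR-457 (0.67), miR-17 (0.66) and miR-223 (0.60). For miR-451-3p they were miR-497 (0.84), miR-17 (0.80), miR-223 (0.80), miR-106 (0.77) and miR-20 (0.77). The 5p arm of miR-144 was closest to miR-16 (0.87), miR-457 (0.82), miR-2188 (0.80), miR-7147 (0.76) and miR-126 (0.69), and its 3p arm to miR-2188 (0.90), miR-457 (0.82), miR-11050 (0.77), miR-497 (0.73) and miR-106 (0.63). Of these, miR-16, miR-457 and miR-497 have the same seed, AGCAGCA, and miR-17, miR-20 and miR-106 share AAAGTGC. The entries of miR-106 and miR-20 had nearly the same values in every library (means 47.57 and 47.63 CPM), so they are not separate matches. Several of the named families were low, with means of 8.33 CPM for miR-497, 13.4 CPM for miR-17 and 4.34 CPM for miR-11050. With miR-23 the r of the 4 arms lay between -0.38 and 0.23.

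Among the arms themselves, r was 0.87 between the arms of miR-451 and 0.74 between the arms of miR-144. Between the families it was 0.83 for miR-451-5p and miR-144-3p, 0.72 for the 5p arms, 0.67 for the 3p arms and 0.30 for miR-451-3p and miR-144-5p. The family miR-2188, which was among the closest to 3 of the 4 arms, stood at 1518, 1655 and 1539.9 CPM in large fish and 2437, 1976 and 727 CPM in small fish. Its small fish values thus spanned those of large fish, with S3 again the lowest.

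**Figure D4:**
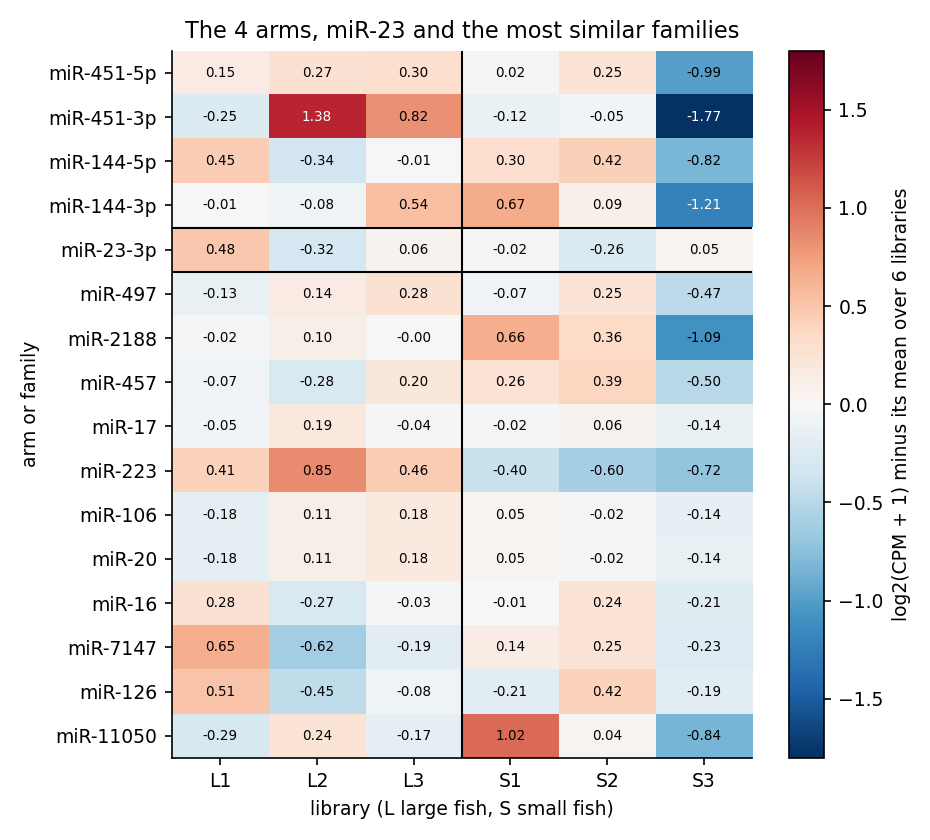
Log2(CPM + 1) of the 4 arms, miR-23-3p and the most similar families in each library, minus the mean of each over the 6 libraries (color and number). In S3 the arms lie at -0.99, -1.77, -0.82 and -1.21, miR-23-3p lies at 0.05 and miR-2188 at -1.09, and in L2 miR-451-3p lies at 1.38.

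Other miRNAs known from red cells of mammals were read from a list of 13 families, of which 10 were tested. Each family was read from its entry with the highest mean. The only one of these that passed as higher in large fish was dre-miR-15c of the miR-15 family, which represses cell cycle genes. It was 4042 ± 187 CPM in small fish and 8169 ± 2252 CPM in large fish (log2 fold change 0.97, limma adjusted p = 0.0386). It was also the only one of 35 tested entries of miR-15 that passed, and their log2 fold changes ran from -0.01 to 0.97. Over all alternatives the adjusted p of dre-miR-15c lay between 0.000236 and 0.115, and it was above 0.05 with each library but L3 left out. The median of these families was 0.18, beside -0.20 over 152 families, of which 7 were higher and 25 lower. Of 244 tested entries of the list, 7 (2.87%) passed as higher and 0 as lower, beside 2.82% and 14.2% of all entries. Summed levels of the list were 28057 to 35362 CPM in large fish and 23985 to 26025 CPM in small fish. These sums did not overlap, as was the case for 40.1% of single entries, and without miR-15 they were 22143 to 26532 CPM and 19729.6 to 22116 CPM, nearly touching. The most abundant entry of let-7, also abundant in red cells, was 12548 ± 565 CPM in large fish and 9842 ± 930 CPM in small fish. It did not pass (limma adjusted p = 0.195). Of 89 tested entries of let-7, 5 passed as higher and 0 as lower, with log2 fold changes from -0.87 to 1.07. Of 21 tested entries of miR-16, 1 passed as higher and 0 as lower, with log2 fold changes from -0.35 to 1.35. The most abundant of them, ccr-miR-16c, was at -0.01.

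Of 7 families that regulate red cell differentiation in mammals or zebrafish, miR-150, which represses MYB, rose by 1.94 on the log2 scale (limma adjusted p = 0.0138). The myeloid miRNA miR-223 rose by 1.14 (limma adjusted p = 0.0202), and no other family of this list passed by its most abundant entry. Of its 119 tested entries, 22 (18.5%) passed as higher and 1 (0.840%) as lower, beside 2.82% and 14.2% of all entries. The higher ones were 11 of miR-150, 7 of miR-223 and 4 of miR-222, and names of 1 family can share reads. The most abundant entry of miR-222 had a log2 fold change of -0.51. With a library left out the limma adjusted p of miR-150 reached 0.0584 and that of miR-223 reached 0.0888. Both miR-150 and miR-223 are also abundant in white blood cells. The leukocyte list, 6 families with 3 higher, also holds miR-150 and miR-223. Of its 131 tested entries, 26 (19.8%) passed as higher and 3 (2.29%) as lower, beside 2.82% and 14.2% of all entries. The lower ones were all of miR-146. Of 60 tested entries of miR-181, 0 passed, with log2 fold changes from -1.71 to 0.55, and its most abundant entry was at -0.50. The most abundant entry of miR-146, dre-miR-146b, did not pass, at 14226 ± 10959 CPM in large fish and 4732 ± 60.5 CPM in small fish (log2 fold change 1.33, limma adjusted p = 0.0949). Summed levels of the list were 17421 to 38957 CPM in large fish and 8189 to 9564 CPM in small fish. L2 was the highest, with 26878 CPM of dre-miR-146b. The endothelial and thrombocyte miRNA miR-126 overlapped between the groups, at 7395 to 14401 and 8771 to 13548 CPM. Muscle families, of which 3 of 4 tested were lower, summed to 2381 to 6661 CPM in large fish and 10599 to 17519.9 CPM in small fish. Among 83 tested entries of the muscle list, 0 passed as higher and 69 (83.1%) as lower, beside 2.82% and 14.2% of all entries. The liver miRNA miR-122 stood at 87.3 to 257 CPM in large fish and 189.6 to 254 CPM in small fish. Of the listed families, 2 of the red cell list and 1 of the muscle list had no entry among those analysed here, and no other family was at 0 in every library. The part of these other sources in the levels of miR-451 and miR-144 was not tested.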

How the data were processed

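The authors trimmed the reads, used Bowtie to set aside other RNA classes, matched what was left to miRBase and to the carp genome, and collapsed reads by molecular identifier. The deposited values are CPM per library, and the step between low values returned whole counts for 100% of them (tolerance 0.02). Members and lists were chosen with earlier results of these data known.

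Large minus small fish was fitted in R 4.3.3 with limma 3.58.1, with a trend, on log2(CPM + 1), over entries that reached 1 CPM in 3 or more libraries, with Benjamini-Hochberg adjustment over all of them. The study used edgeR on counts. Recovered counts were tested with edgeR 4.0.16 and DESeq2 1.42.0 as alternatives. Each arm was represented by its entry with the highest mean. Arms of names without one came from shared words of 8 bases. Named were these representatives, zebrafish and carp entries, the lowest and highest fold changes, passing members, the 5 most similar families per arm, miR-23 and list families. The entries hsa-miR-451a, chi-miR-451-5p, hsa-miR-144-5p, ola-miR-144, chi-miR-451-3p, gmo-miR-451-3p, mmu-miR-144-3p, ssa-miR-144-3p and the low entries shown as sequences were added after their values were seen. Other settings tried were a filter of 10 CPM or none, pseudocounts of 0.1 and 10, TMM scaling, quantile normalization, no trend, a replicate block, identical entries counted once, other representatives and each library left out. The bias-corrected form of the edgeR quasi-likelihood test was chosen after seeing the data. Newly predicted miRNAs and proteins were not analysed here, and loci of the members in the carp genome were not used here.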

Additional observations from a re-analysis of the deposited data

How the results depend on the processing

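The number of members that passed was 0 under most alternatives, 1 (pma-miR-451) after quantile normalization, and 2 by the edgeR exact test and by DESeq2, in which miR-451-3p passed with log2 fold changes of 1.52 and 1.55. It was 0 in each fit without a library, where the count over all entries ran from 0 without L2 to 362 without L3, so those fits say little about stability. With a library left out, log2 fold changes ran from 0.10 to 0.72 for miR-451-5p, 0.73 to 1.75 for miR-451-3p, -0.33 to 0.29 for miR-144-5p and -0.23 to 0.71 for miR-144-3p. The negative values were -0.33 and -0.23 without S3 and -0.14 without L1. The log2 differences of ratios ran from -1.22 to -0.47 for miR-451-5p to miR-451-3p, -0.53 to -0.02 for miR-144-5p to miR-144-3p, 0.21 to 0.67 for miR-451-5p to miR-144-5p, 0.52 to 1.36 for miR-451-3p to miR-144-3p, and -0.11 to 0.67 for miR-451-5p to miR-23-3p, with -0.11 without S3. The cause of these changes was not tested. Averaged over its distinct sets of values, miR-451-3p was 324 CPM, against 1161 CPM for its most abundant entry, and was then below miR-144-5p (478 CPM). With the pool number as a replicate block, 0 members and 207 of all entries passed, against 308 without it. Same-numbered libraries had deviations correlated at -0.05, -0.06 and 0.02, and no library correlated best with its own number. No pairing by number was thus seen, though so few libraries cannot exclude one. Depth set the floor below which miR-486 could not be read, and whether depth explains its low counts was not tested.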
